A study of Mus musculus with 30 samples.

Results

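Sox9, Sox5 and Sox6, the 3 genes that encode the SOX trio of cartilage, were followed by name through all 30 fracture callus libraries. They are 3 of the 55416 genes counted. SOX9 is a DNA-binding factor of the HMG-box family that commits mesenchymal cells to the chondrocyte fate and switches on cartilage matrix genes. SOX5 and SOX6 are close relatives of each other that carry no transactivation domain of their own. They bind beside SOX9 on cartilage enhancers, strengthen its action and are themselves turned on downstream of it. In a healing fracture, periosteal progenitors form a cartilage callus that is later replaced by bone. Sox6 is also active outside cartilage, in maturing red blood cells, glia and muscle.

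The libraries came from calluses of closed, non-stabilized tibial fractures in mice 7 to 12 weeks old. P-Apex1KO mice carried Prrx1-Cre and 2 floxed alleles (Prrx1-Cre;Apex1 C/C), so that Apex1, which encodes a DNA repair and redox enzyme, was deleted in limb mesenchyme only and the other cells of the callus kept it. The animals called WT were littermates that were Apex1 C/+ with Prrx1-Cre+/-, or else Apex1 C/+ or Apex1 C/C alone, so all carried a floxed allele and some carried the Cre with it. WT and P-Apex1KO mice numbered 4 and 4 at 3 days post fracture (3-dpf), 5 and 3 at 6-dpf, 4 and 3 at 10-dpf, and 4 and 3 at 14-dpf. Both sexes were present in every group except P-Apex1KO at 14-dpf, which held 3 females, and WT at 14-dpf held 1 female, replicate 1. The callus was sequenced whole, so that fewer chondrocytes and less Sox RNA in each chondrocyte cannot be told apart.

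Between 18334389 and 43111491 reads were assigned to genes in each library. Levels are given as CPM (read counts scaled to a common library total) after scaling for RNA composition, and differences as log2 fold changes with standard errors (SE) from the quasi-likelihood fit of edgeR, which included sex; an adjusted p under 0.05 is the threshold throughout. The deleted gene itself checked the labels. Apex1 was at 15.4 ± 0.411 CPM (SD, n = 3) in P-Apex1KO and 24.2 ± 3.48 (n = 5) in WT at 6-dpf (edgeR adjusted p = 0.0071), and at 15.5 ± 1.39 against 23.7 ± 4.90 at 10-dpf (adjusted p = 0.0278). At 14-dpf the log2 difference was -0.29 (SE 0.19, edgeR adjusted p = 0.367), and -0.55 (SE 0.15, adjusted p = 0.0187) without sex in the model. At 3-dpf it was -0.15 (SE 0.19, edgeR adjusted p = 0.927), and the library labelled P-Apex1KO replicate 4 had 34.6 CPM, above the highest WT library at 33.1 CPM. The libraries labelled replicates 2 and 3 had 29.1 and 27.6 CPM, inside the WT range of 26.5 to 33.1 CPM. Only the one labelled replicate 1, at 18.4 CPM, was below every WT library. The 3-dpf animals are therefore called the libraries labelled P-Apex1KO below.

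On GRCm39, Sox9 (ENSMUSG00000000567) occupies chromosome 11, 112673009 to 112678586, on the plus strand, with a single annotated transcript of 4176 bases. Sox5 (ENSMUSG00000041540) lies on the minus strand of chromosome 6, 143774151 to 144727703, and Sox6 (ENSMUSG00000051910) on the minus strand of chromosome 7, 115070106 to 115638860. Both are long genes, spanning 953.6 and 568.8 kb, with 30 and 36 annotated transcripts. Their exons together cover 15527 bases in Sox5 and 16215 in Sox6, against which the longest single transcripts measure 8009 and 9329 bases. Reads of every transcript were counted as 1 gene, so values do not separate isoforms. Sox9 gathered 329 to 17297 reads in a library, Sox5 139 to 1619 and Sox6 1489 to 6549. At the shallowest library the counting error alone was 5.51% for Sox9, 8.48% for Sox5 and 2.59% for Sox6, which covers counting error only.

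SOX proteins recognise short motifs through their HMG box, and the 250 bases before the annotated starts of Sox5 and Sox6 are shown because SOX factors are known to act on these genes too. The sequences are RefSeq's on GRCm38.p6, read 5′ to 3′ on the gene's strand, and each window matched GRCm39 exactly once on that strand. Capitals mark ACAAAG or ACAATG or TCAAAG or TCAATG on either strand. The Sox5 window is chr6:143947107-143947356, the only Sox5 start in the table, and it begins 834.9 kb inside the GRCm39 gene. The first Sox6 window, chr7:116038745-116038994, lies 0.9 kb inside the 5′ edge of the gene. The second Sox6 window, chr7:115995087-115995336, lies 44.5 kb inside it and holds the most matches of the 6 Sox6 starts, 6 in all.
Sox5, upstream of an internal start: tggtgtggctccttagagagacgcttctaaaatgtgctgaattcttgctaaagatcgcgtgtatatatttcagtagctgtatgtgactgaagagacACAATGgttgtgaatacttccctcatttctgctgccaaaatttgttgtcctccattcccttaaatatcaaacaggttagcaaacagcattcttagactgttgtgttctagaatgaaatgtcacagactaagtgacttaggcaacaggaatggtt
Sox6, near the 5′ edge: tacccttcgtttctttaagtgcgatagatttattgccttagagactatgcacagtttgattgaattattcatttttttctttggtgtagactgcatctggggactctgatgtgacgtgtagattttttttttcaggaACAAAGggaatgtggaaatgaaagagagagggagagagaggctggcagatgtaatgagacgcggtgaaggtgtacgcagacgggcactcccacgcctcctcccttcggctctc
Sox6, upstream of an internal start: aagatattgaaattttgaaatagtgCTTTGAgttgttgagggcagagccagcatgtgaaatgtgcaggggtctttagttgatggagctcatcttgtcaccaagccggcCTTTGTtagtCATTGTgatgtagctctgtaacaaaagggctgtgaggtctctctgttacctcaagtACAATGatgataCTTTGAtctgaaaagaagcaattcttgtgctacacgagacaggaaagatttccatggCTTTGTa
All 7 windows, 1 of Sox5 and 6 at alternative starts of Sox6, held at least 1 of the 4 motifs, beside 39.4% of 32851 promoters of the same length. That set of promoters held none for Sox9. Windows with 6 or more matches numbered 7, or 0.0213% of all. A match describes letters only; no binding was measured here.

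Sox9 had the widest range of the 3 genes. Its group means, in falling order, were 439 CPM in WT at 6-dpf, 196 in P-Apex1KO at 10-dpf, 155 in WT at 10-dpf, 121 in P-Apex1KO at 6-dpf, 78.5 in WT at 3-dpf, 74.7 in P-Apex1KO at 14-dpf, 55.0 in the libraries labelled P-Apex1KO at 3-dpf and 40.7 in WT at 14-dpf. The highest mean was 10.8-fold the lowest. Only WT at 6-dpf stood clear of the group next below it; each later neighbour in that order overlapped the next. For Sox5 the order again opened with WT at 6-dpf (44.2 CPM), P-Apex1KO at 10-dpf (36.7) and WT at 10-dpf (27.4), then P-Apex1KO at 14-dpf (21.5), P-Apex1KO at 6-dpf (15.1), WT at 14-dpf (9.44), WT at 3-dpf (7.44) and the libraries labelled P-Apex1KO at 3-dpf (6.13). The Sox5 range was 7.2-fold, and the 14-dpf and 6-dpf P-Apex1KO groups were each separate from the group below. Sox6 spanned 2.4-fold, from 176 CPM in P-Apex1KO at 10-dpf, through WT at 6-dpf (163), P-Apex1KO at 14-dpf (158), WT at 10-dpf (143), P-Apex1KO at 6-dpf (115), WT at 14-dpf (81.6) and the libraries labelled P-Apex1KO at 3-dpf (80.8), to 71.9 in WT at 3-dpf. Among Sox6 neighbours, WT at 10-dpf and P-Apex1KO at 6-dpf were each separate from the group below and the others overlapped.

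**Figure D1:**
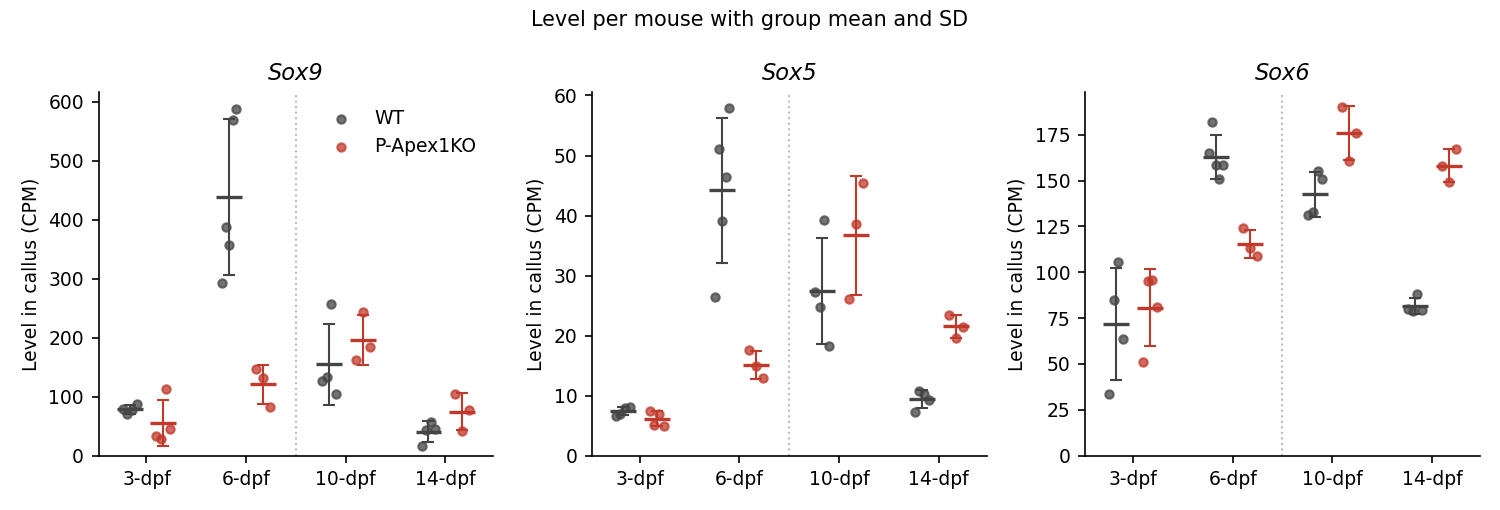
Level of Sox9, Sox5 and Sox6 in callus (CPM, linear axes from 0) in each WT (grey) and P-Apex1KO (red) mouse at 3-, 6-, 10- and 14-dpf, with group mean and SD; the dotted line separates libraries named under different schemes. At 6-dpf every P-Apex1KO mouse lies below every WT mouse for all 3 genes, and at 14-dpf every P-Apex1KO mouse lies above every WT mouse for Sox5 and Sox6 but not for Sox9.

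Expressed per kilobase of exon, the only scale on which levels of different genes can be set side by side, Sox9 was the most abundant of the 3 genes at 6-dpf in WT, at 105 ± 31.7 CPM per kb (SD, n = 5), against 10.1 for Sox6 and 2.85 for Sox5. With the longest transcript as the length these became 17.5 for Sox6 and 5.52 for Sox5. At 14-dpf in WT, Sox9 was at 9.75 ± 4.20 CPM per kb (n = 4) and Sox6 stood at 5.03 by exon length or 8.75 by the longest transcript. Sox5 was then at 0.61 or 1.18 CPM per kb.

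At 6-dpf, the time at which Col2a1 was highest in WT, all 3 genes were lower in P-Apex1KO. Sox9 measured 292, 388, 357, 569 and 588 CPM in the 5 WT mice and 147, 132 and 83.3 CPM in the 3 P-Apex1KO mice. The lowest WT mouse was well above the highest P-Apex1KO mouse, and the fitted log2 difference was -1.83 (SE 0.28), 3.55-fold lower (edgeR adjusted p = 0.00589). Sox5 measured 26.4, 51.1, 39.2, 46.4 and 57.9 CPM in WT and 17.5, 14.9 and 12.9 CPM in P-Apex1KO. These groups did not overlap either, and the log2 difference was -1.53 (SE 0.24), 2.89-fold lower (edgeR adjusted p = 0.00616). Sox6 measured 165, 182, 158, 151 and 158 CPM in WT and 124, 113 and 109 CPM in P-Apex1KO. The gap was narrower but every P-Apex1KO mouse was again below every WT mouse, with a log2 difference of -0.47 (SE 0.10), 1.38-fold lower (edgeR adjusted p = 0.0175). The 3 of 3 called lower stand beside 5.61% of 20260 genes called lower at 6-dpf, and the 3 of 3 with no overlap beside 11.9% of genes with every P-Apex1KO below every WT library. Without WT replicate 2 or P-Apex1KO replicate 1 the Sox6 adjusted p was 0.0543 or 0.0503, and with libraries scaled by size alone its difference was -0.29 (edgeR adjusted p = 0.107).

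The choice of scaling bears on small differences such as that of Sox6. Scaling by library size alone moved the median log2 difference of all genes from 0.01 to 0.20 at 6-dpf, with 814 genes lower and 2780 higher in place of 1137 and 1075. At 14-dpf it moved the median from 0.04 to 0.31, with 766 lower and 1878 higher in place of 1424 and 865. Relative to those medians the Sox6 differences at both times were about as large as before.

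Marker genes of other tissues also differed. Summed over 21 skeletal muscle genes, the level at 6-dpf was 7084 to 12932 CPM in WT and 15804 to 33965 in P-Apex1KO, 2.50-fold higher on average, and 17 of the 21 genes were called higher. Of 10 macrophage genes 8 were higher at 6-dpf, as were 6 of 12 Schwann and glial genes and 5 of 14 lymphocyte genes. Of 16 osteoblast genes 13 were lower and 1 higher, and of 14 hypertrophic chondrocyte genes 10 were lower. Calls were few among tendon and fibrous genes (1 of 10 higher) and endothelial genes (1 of 10 lower). The part of these other cells in the Sox differences was not tested.

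At 3-dpf 0 of the 3 genes passed in edgeR, 0 had an unadjusted p under 0.05 and DESeq2 called 0; over all 19866 genes edgeR called 0 (0.0%). Under an unadjusted p of 0.05 there were 1216 genes, and DESeq2 called 85. Sox9 measured 79.5, 70.0, 77.1 and 87.3 CPM in WT and 33.3, 28.4, 112 and 45.9 CPM in the libraries labelled P-Apex1KO. Of those 4, replicate 3, the only female, was above every WT library and the other 3 were below every WT library. The group was thus spread from 28.4 to 112 CPM around a log2 difference of -0.54 (SE 0.36, edgeR adjusted p = 0.875). Sox5 ran from 6.69 to 8.14 CPM in WT and from 4.91 to 7.42 CPM in the libraries labelled P-Apex1KO, overlapping, with a difference of -0.25 (SE 0.18, edgeR adjusted p = 0.876). Sox6 ran from 33.9 to 106 CPM and from 51.3 to 95.7 CPM, and its difference of 0.41 had an SE of 0.29 (edgeR adjusted p = 0.877).

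At 10-dpf Sox9 and Sox5 overlapped between genotypes and Sox6 did not. Sox9 measured 127, 133, 256 and 104 CPM in WT and 161, 244 and 184 CPM in P-Apex1KO, a log2 difference of 0.28 (SE 0.30, edgeR adjusted p = 0.624). Sox5 measured 27.3, 24.7, 39.3 and 18.3 CPM in WT and 26.0, 38.6 and 45.5 CPM in P-Apex1KO, a difference of 0.35 (SE 0.27, edgeR adjusted p = 0.49). For both genes WT replicate 3 was the highest WT mouse, and the groups overlapped. Sox6 measured 131, 133, 155 and 151 CPM in WT and 190, 161 and 176 CPM in P-Apex1KO, which do not overlap, with a difference of 0.31 (SE 0.10, edgeR adjusted p = 0.0999). In edgeR 0 of the 3 were called, 1 (Sox6) had an unadjusted p under 0.05, and DESeq2 called 0; over all 18910 genes 6.46% were called in either direction and 8.79% had every P-Apex1KO above every WT library.

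At 14-dpf the direction was the opposite of that at 6-dpf. Sox5 measured 7.30, 10.8, 10.3 and 9.36 CPM in WT and 23.4, 19.7 and 21.5 CPM in P-Apex1KO. The lowest P-Apex1KO mouse was well above the highest WT mouse, and the log2 difference was 1.59 (SE 0.18), 3.00-fold higher (edgeR adjusted p = 0.00229). Sox6 measured 80.1, 79.1, 88.0 and 79.3 CPM in WT and 158, 149 and 167 CPM in P-Apex1KO. Again no mice overlapped, and Sox6 was higher by 1.01 (SE 0.13), 2.01-fold (edgeR adjusted p = 0.00313). Sox9 measured 16, 44.0, 57.5 and 45.4 CPM in WT and 104, 42.4 and 77.3 CPM in P-Apex1KO. These groups overlapped, because P-Apex1KO replicate 2 lay below 3 of the WT mice. With sex in the model the Sox9 difference was 2.24 (SE 0.49, edgeR adjusted p = 0.0321), larger than the difference between the group means. All 3 P-Apex1KO mice were female, so for all 3 genes this fit sets them against WT replicate 1 alone. That mouse was the only WT female and the lowest in Sox9, and the WT males do not enter the fitted difference. Beside the 3 of 3 called higher, 4.28% of 20228 genes were called higher at 14-dpf, and 18.5% had every P-Apex1KO above every WT library.

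The 14-dpf results were therefore fitted again without sex. Sox5 was then higher by 1.23 (SE 0.14, edgeR adjusted p = 0.0004) and Sox6 by 0.99 (SE 0.07, edgeR adjusted p = 5.28e-05), while Sox9 did not pass, at 0.91 (SE 0.45, edgeR adjusted p = 0.155). With WT replicate 1 also left out, Sox5 was at 1.13 (SE 0.11, adjusted p = 0.000632), Sox6 at 0.99 (SE 0.08, adjusted p = 0.000323) and Sox9 at 0.65 (SE 0.30, adjusted p = 0.130), all by edgeR. The background without sex was 18.8% of 18410 genes called higher, and 17.6% without WT replicate 1. Genotype and sex cannot be fully told apart at 14-dpf, where no P-Apex1KO male was sequenced. Summed marker levels of other tissues also differed between the genotypes at 14-dpf. The muscle sum was 3419 to 12147 CPM in WT and 12384 to 37475 in P-Apex1KO. The 12147 CPM belonged to WT replicate 1, the WT side of the fit with sex, and the other WT mice had 3419 to 4258 CPM. The Schwann and glial sum was 1.82-fold and the lymphocyte sum 3.51-fold that of WT, while the osteoblast sum was 0.228-fold. With sex in the model 0 of 21 muscle genes were called, 1 of 12 Schwann and glial genes and 1 of 14 lymphocyte genes were higher, and 11 of 16 osteoblast genes were lower. For the muscle genes DESeq2 called 3 higher and 2 had an unadjusted p under 0.05 in edgeR. Without sex 11 of 21 muscle genes, 8 of 11 Schwann and glial genes and 14 of 14 lymphocyte genes were higher, and 13 of 16 osteoblast genes lower. The part of these cells in the 14-dpf values was not tested.

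**Figure D2:**
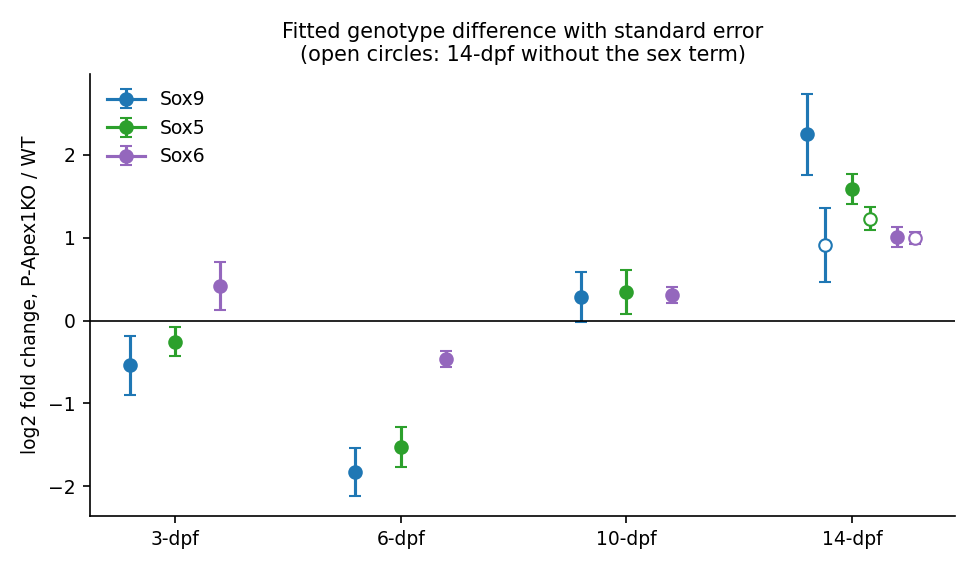
Fitted log2 fold change of P-Apex1KO over WT with SE for Sox9 (blue), Sox5 (green) and Sox6 (purple) at each time; filled circles have sex in the model and open circles, at 14-dpf, do not. All 3 genes lie below 0 at 6-dpf (-1.83, -1.53 and -0.47) and above 0 at 14-dpf, where Sox9 drops from 2.24 to 0.91 without the sex term and Sox6 moves from 1.01 to 0.99.

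Within WT, all 3 genes rose between 3- and 6-dpf, which both used the same library naming. Sox5 rose 5.79-fold (log2 2.53, SE 0.21, edgeR adjusted p = 7.75e-07), Sox9 5.33-fold (log2 2.41, SE 0.36, adjusted p = 0.000241) and Sox6 2.25-fold (log2 1.17, SE 0.23, adjusted p = 0.00171). Over all genes 15.4% rose in WT. In P-Apex1KO only Sox5 was called, with a 2.46-fold rise (log2 1.30, SE 0.22, edgeR adjusted p = 0.00183) where 7.1% of genes rose. Sox9 changed by 1.17 (SE 0.38, adjusted p = 0.0586) and Sox6 by 0.50 (SE 0.26, adjusted p = 0.218). Without the 3-dpf library labelled P-Apex1KO replicate 3 the Sox9 change was 1.78 (edgeR adjusted p = 0.00182). The genotype differences at 6- and 3-dpf themselves differed by -1.24 for Sox9 (SE 0.52, edgeR adjusted p = 0.336), -1.23 for Sox5 (SE 0.30, adjusted p = 0.0618) and -0.67 for Sox6 (SE 0.35, adjusted p = 0.468). In edgeR 0 of the 3 passed, beside 1.3% of 20468 genes; 2 had an unadjusted p under 0.05, and DESeq2 called 1 (Sox5, -1.26, adjusted p = 0.00392). Without WT replicate 1 of 6-dpf the Sox5 value also passed (edgeR adjusted p = 0.00479).

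Between 10- and 14-dpf all 3 genes fell in WT. Sox9 fell 4.61-fold (log2 -2.20, SE 0.38, edgeR adjusted p = 0.00441), Sox5 3.17-fold (log2 -1.66, SE 0.20, adjusted p = 0.000525) and Sox6 1.78-fold (log2 -0.83, SE 0.08, adjusted p = 0.000183), where 4.92% of all genes fell. In P-Apex1KO the changes were -0.89 for Sox9 (SE 0.44, edgeR adjusted p = 0.393), -0.48 for Sox5 (SE 0.25, adjusted p = 0.410) and -0.12 for Sox6 (SE 0.10, adjusted p = 0.626). In edgeR 0 of those 3 passed, beside 0.259% of genes. At an unadjusted p under 0.05 there were 0, and DESeq2 called 0. The P-Apex1KO mice nevertheless did not overlap between the times for Sox9 (161 to 244 and 42.4 to 104 CPM) or Sox5 (26.0 to 45.5 and 19.7 to 23.4 CPM). P-Apex1KO held 1 female at 10-dpf and 3 at 14-dpf, so sex and time are partly mixed in these values. Over alternative runs with all samples, Sox9 ran from -1.38 to -0.81 and Sox5 from -0.75 to -0.39, and none passed. The test of the difference between genotypes passed for Sox6 alone, at 0.71 (SE 0.13, edgeR adjusted p = 0.045), among 0.0406% of 19705 genes called higher. It was lost in 12 of the 14 fits that left out 1 library, where the value ran from 0.64 to 0.90 and the adjusted p from 0.0222 to 0.157. The Sox5 value was 1.18 (SE 0.34, edgeR adjusted p = 0.172) and the Sox9 value 1.31 (SE 0.62, adjusted p = 0.406). Over alternative runs with all samples the Sox9 value ran from 0.57 to 1.42. No test was made from 6- to 10-dpf, because the naming of the libraries changes there and batch and time cannot be told apart.

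The proportions of the trio, and of Col2a1 to Sox9, were then taken within each library, where scaling cancels. Col2a1 encodes type II collagen, the main collagen of cartilage and the classic SOX9 target. At 6-dpf the log2 ratio of Col2a1 to Sox9 reads was 5.80 ± 0.23 (SD, n = 5) in WT and 2.88 ± 0.28 (n = 3) in P-Apex1KO, a difference of -2.92 (SE 0.19, exact two-sided permutation p = 0.0357, the smallest that 5 against 3 allows, 0.214 adjusted over 12 ratios). Col2a1 was thus lower in proportion than Sox9 itself was. At 10-dpf, where Sox9 levels overlapped, the ratio was 6.59 ± 0.12 (n = 4) in WT and 4.68 ± 0.25 (n = 3) in P-Apex1KO, with no overlap and a difference of -1.91 (SE 0.16, exact permutation p = 0.0571, the smallest that 4 against 3 allows, adjusted 0.229). At 14-dpf it was 5.60 ± 0.38 against 4.71 ± 0.95 (difference -0.89, SE 0.58, exact permutation p = 0.171), and at 3-dpf the difference was 0.32 (SE 0.56, exact permutation p = 0.600).

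The balance of Sox6 to Sox9 was also compared. The log2 ratio of Sox6 to Sox9 reads was -1.38 ± 0.50 in WT (n = 5) and -0.03 ± 0.36 in P-Apex1KO (n = 3), which did not overlap (difference 1.35, SE 0.30, exact permutation p = 0.0357, adjusted 0.214). At 3-, 10- and 14-dpf the differences were 0.98 (SE 0.56), -0.11 (SE 0.36) and 0.03 (SE 0.53). For Sox5 to Sox9 the differences were 0.44 (SE 0.42), 0.34 (SE 0.18), 0.03 (SE 0.23) and 0.27 (SE 0.43) at the 4 times, and the groups overlapped at each; no test compared the Sox5 ratio with the Sox6 ratio. None of the 12 ratio comparisons passed after adjustment, which groups of this size could not have done.

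**Figure D3:**
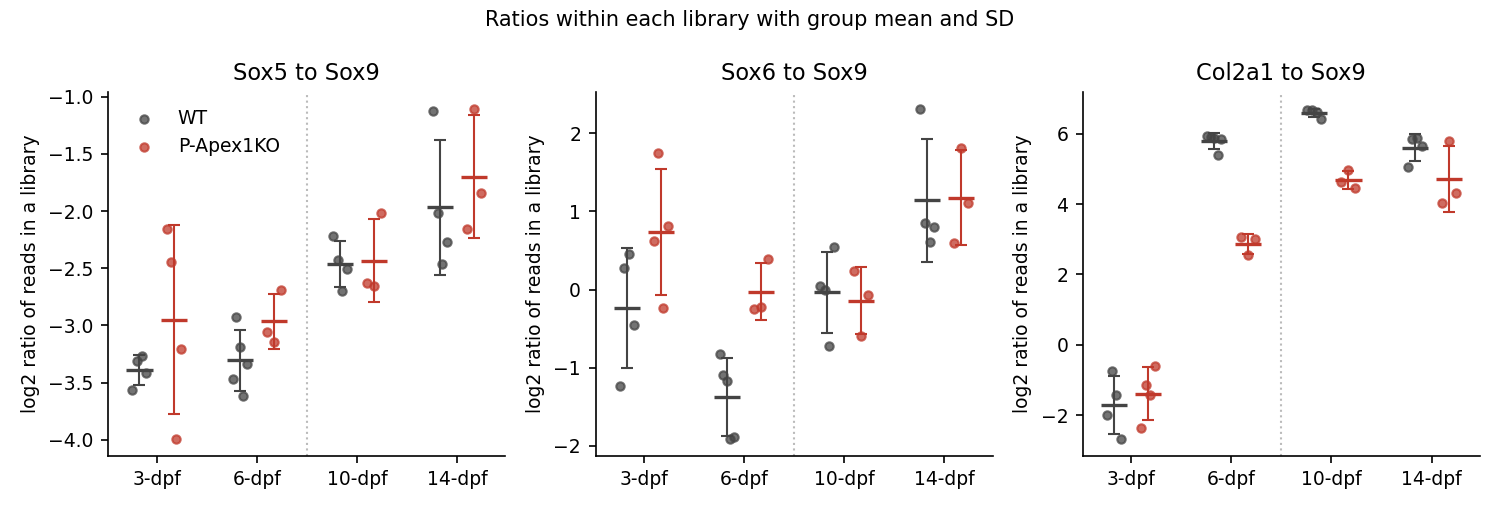
Log2 ratio of reads within each library for Sox5 to Sox9, Sox6 to Sox9 and Col2a1 to Sox9, per mouse with group mean and SD (WT grey, P-Apex1KO red). The Col2a1 to Sox9 ratio of P-Apex1KO lies below WT without overlap at 6-dpf (2.88 against 5.80) and 10-dpf (4.68 against 6.59), while Sox5 to Sox9 overlaps at every time.

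The cartilage genes known to be driven by the SOX trio were taken as a list of 32. At 6-dpf 30 of the 32 were lower in P-Apex1KO and 0 higher, with a median log2 difference of -2.35 where the median of all genes was 0.01. Fibin (-0.98, edgeR adjusted p = 0.0719) and Prelp (-0.41, adjusted p = 0.364) did not pass, and by DESeq2 31 were lower and 0 higher. Matn1, a cartilage matrix filament protein, was at 47.9 ± 9.27 CPM in WT and 1.44 ± 0.856 in P-Apex1KO, a log2 difference of -5.03 (SE 0.38, edgeR adjusted p = 0.00041). Col2a1 went from 17990 to 34179 CPM in WT to between 676 and 1225 CPM in P-Apex1KO, a difference of -4.68 (SE 0.32, edgeR adjusted p = 0.000271). Ucma, a secreted protein of early chondrocytes, was at 180 ± 52.2 and 12.6 ± 7.34 CPM (log2 -3.80, SE 0.39, edgeR adjusted p = 0.0012). Col9a1, a chain of the type IX collagen that coats type II fibrils, was at 2034 ± 403 and 175 ± 67.0 CPM (log2 -3.48, SE 0.29, edgeR adjusted p = 0.00041). These 4 were named for having the largest differences of the list, which ran from -5.03 to -0.41. The median of the list was -2.35, where Sox9 was at -1.83. The summed level of the list was 54050 ± 11561 CPM in WT and 6431 ± 1926 in P-Apex1KO, without overlap.

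The 250 bases before the start of Matn1 on GRCm38.p6, chr4:130944135-130944384 on the plus strand, are shown because this gene had the lowest log2 value of the list and its window is the only target promoter with an inverted pair of SOX half-sites. Capitals mark the pair, CAANGNNNNCNTTG, which 0.387% of all promoters hold.
Matn1, upstream of its start: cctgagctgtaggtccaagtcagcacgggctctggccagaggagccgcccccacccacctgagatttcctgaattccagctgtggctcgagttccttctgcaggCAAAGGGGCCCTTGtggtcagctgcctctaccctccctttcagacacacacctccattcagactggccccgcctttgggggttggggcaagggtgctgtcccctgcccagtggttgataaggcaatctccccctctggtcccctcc
Col9a1, at chr1:24177360-24177609 on the plus strand, held 1 single motif, TCAAAG, in capitals. The window of a second Col9a1 start, chr1:24194953-24195202, held 0 and is not shown.
Col9a1, upstream of its first start: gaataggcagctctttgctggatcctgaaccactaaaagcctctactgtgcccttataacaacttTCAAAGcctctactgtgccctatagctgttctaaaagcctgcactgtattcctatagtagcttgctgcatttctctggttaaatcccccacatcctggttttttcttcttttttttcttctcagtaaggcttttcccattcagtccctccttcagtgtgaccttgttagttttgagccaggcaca
Over the 26 targets of 32 that matched the table, 7 of 31 windows (22.6%) held any of the 4 single motifs, beside 39.4% of all promoters. Much of the known SOX9 action on these genes runs through enhancers outside such windows, which were not searched.

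At 3-dpf 28 of the targets could be tested. In edgeR 0 were called, 6 had an unadjusted p under 0.05 and DESeq2 called 0, with a median of -0.27. At 10-dpf 1 of 32 targets was lower, beside 3.44% of all genes, namely Chad, a cartilage leucine-rich protein, at 266 ± 29.0 CPM in WT and 151 ± 41.3 in P-Apex1KO (log2 -0.82, SE 0.19, edgeR adjusted p = 0.0498), and the median was 0.01. No target was called higher in edgeR at 10-dpf, where 1 was higher at an unadjusted p under 0.05 and DESeq2 called 5 lower and 1 higher. Col2a1 was at 15139 and 5197 CPM then (log2 -1.62, edgeR adjusted p = 0.052).

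At 14-dpf 21 targets were higher and 2 lower with sex in the model, with a median of 1.76. These were 65.6% and 6.25% of the list, beside 4.28% and 7.04% of all genes, so the share that was lower was near that of all genes. Cnmd (chondromodulin) was at 20.2 ± 14.0 CPM in WT and 103 ± 29.4 in P-Apex1KO (log2 5.12, SE 0.65, edgeR adjusted p = 0.00514). Epyc (epiphycan) was at 3.00 ± 1.47 and 15.2 ± 3.50 CPM (log2 4.21, SE 0.36, adjusted p = 0.000928), and Ucma at 2.46 ± 2.23 and 12 ± 4.57 CPM (log2 5.62, SE 1.19, adjusted p = 0.0284). Matn3, another matrilin, was at 72.6 ± 51.9 and 192 ± 68.7 CPM (log2 4.15, SE 0.69, adjusted p = 0.0128). Col11a1 (-0.80, adjusted p = 0.0242) and Col11a2 (-1.90, adjusted p = 0.00792), chains of type XI collagen, were the 2 that were lower. These fits set P-Apex1KO against WT replicate 1 alone. Without sex the edgeR values were 2.39 for Cnmd (adjusted p = 0.0305), 2.37 for Epyc (adjusted p = 0.00431) and 2.33 for Ucma (adjusted p = 0.0445). Without sex in the model 8 targets were higher (25% of the list, beside 18.8% of all genes) and 4 lower (12.5%, beside 18.4%), with a median of 0.77. The 8 were also called higher with sex and comprise Cnmd, Epyc, Matn1, Mia, Prelp, Scrg1, Ucma and Wwp2. Col11a1 and Col11a2 were lower in both fits. Matn3 was then at 1.43 (edgeR adjusted p = 0.156). Col2a1 turned from 1.84 (edgeR adjusted p = 0.0132) to -0.18 (adjusted p = 0.825), and to -0.50 (adjusted p = 0.109) with WT replicate 1 also left out. That mouse had 534 CPM of Col2a1 and the other WT mice 2287 to 3376 CPM, while P-Apex1KO mice had 1538 to 2367. The summed list was then at 9157 CPM in WT and 8262 in P-Apex1KO. Sox5 and Sox6 were thus called higher at 14-dpf in both fits, whereas Col2a1 was called in the fit with sex alone and the summed list overlapped between genotypes.

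**Figure D4:**
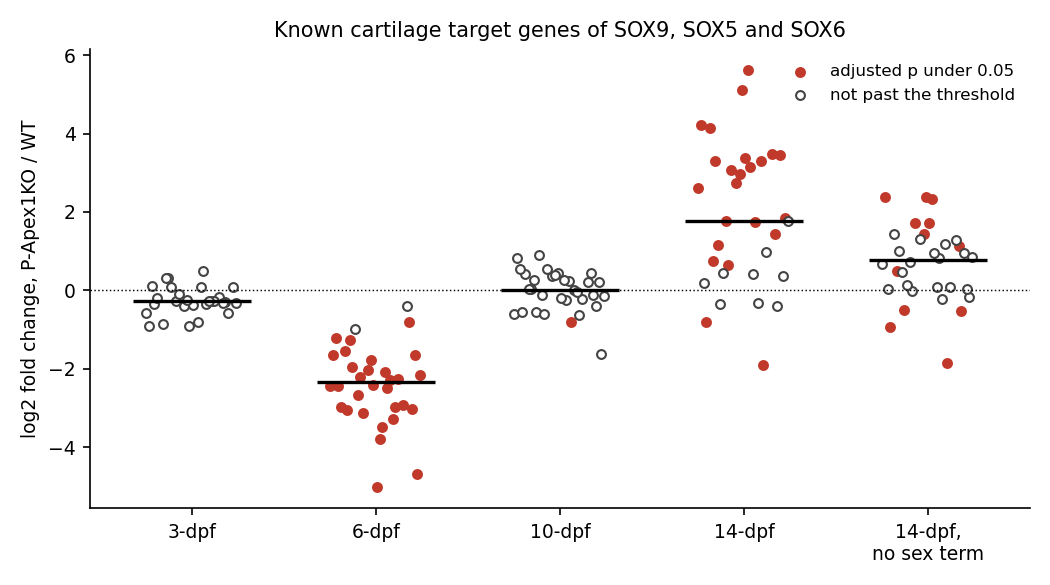
Log2 fold change of P-Apex1KO over WT for each known cartilage target of SOX9, SOX5 and SOX6 at the 4 times and at 14-dpf without the sex term; red points have an adjusted p under 0.05, open points do not, and the bar is the median. The median is -2.35 at 6-dpf and 0.01 at 10-dpf, and at 14-dpf it drops from 1.76 to 0.77 when sex is left out.

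Genes known to control Sox9 or to act with SOX9 formed a second list of 38, of which 37 were tested at each time. At 6-dpf 8 were lower and 3 higher (7 and 8 when scaled by library size alone), where 5.31% of all genes were higher. Of the lower genes, 4 belong to Hedgehog signalling, which is known to act upstream of Sox9 in skeletal progenitors; Gli3, of the same pathway, did not pass (-0.28, edgeR adjusted p = 0.211), and Shh was not tested. Ptch1, the Hedgehog receptor and itself a pathway target, was at 277 ± 41.2 CPM in WT and 91.7 ± 29.5 in P-Apex1KO (log2 -1.57, edgeR adjusted p = 0.00407). Gli1 was at 32.3 and 11.2 CPM (log2 -1.48, adjusted p = 0.00732) and Gli2, the main activator, at 24.9 and 9.50 CPM (log2 -1.29, adjusted p = 0.00665). Smo, which relays the signal, was lower (-0.58, adjusted p = 0.0294). Also lower were Trps1, a GATA-type factor of growth plate chondrocytes (-0.96, adjusted p = 0.00278), Runx2, the master factor of bone and hypertrophic cartilage (-0.66, adjusted p = 0.00248), and Ctnnb1, the Wnt effector beta-catenin (-0.55, adjusted p = 0.0328). Bmp2, a ligand that induces Sox9 and chondrogenesis, was at 16.3 and 11.0 CPM (log2 -0.53, adjusted p = 0.0209), a call lost under library size alone (-0.34, adjusted p = 0.0675). The higher genes were the BMP receptor Bmpr1b (0.56, adjusted p = 0.0253) and the SOX9 partners Arid5a (0.59, adjusted p = 0.00933) and Zfp219 (0.35, adjusted p = 0.0453).

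At 10-dpf 4 regulators were lower, where 3.44% of all genes were. Bmp2 was at 25.6 and 12.8 CPM (log2 -0.95, edgeR adjusted p = 0.00854), and Gli2 (-0.77, adjusted p = 0.0114), Gli3 (-0.55, adjusted p = 0.0365) and Runx2 (-0.87, adjusted p = 0.00798) were also lower, while Sox9 itself did not differ past the threshold. In edgeR 0 regulators were higher, beside 3.01% of all genes, with 1 at an unadjusted p under 0.05 and 1 by DESeq2. At 3-dpf edgeR called 0 in either direction, 4 had an unadjusted p under 0.05 and DESeq2 called 0.

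At 14-dpf 11 regulators were lower, beside 7.04% of all genes, and 0 higher by edgeR; 4 were higher at an unadjusted p under 0.05 and 1 by DESeq2. Twist1, a repressor of chondrogenesis, was at 49.7 ± 4.32 and 12.3 ± 2.09 CPM (log2 -1.87, edgeR adjusted p = 0.00114), and Snai2, a zinc-finger repressor of mesenchymal cells, was lower (-1.29, adjusted p = 0.00532). Runx2 was at 329 and 146 CPM (log2 -1.29, adjusted p = 0.0147). Among genes of BMP signalling, the ligands Bmp7 (-1.48, adjusted p = 0.0163) and Bmp4 (-1.11, adjusted p = 0.0257) and the effectors Smad1 (-0.87, adjusted p = 0.0185) and Smad5 (-0.55, adjusted p = 0.0181) were lower, while Bmp2 (-0.38, adjusted p = 0.176), Smad4 (-0.42, adjusted p = 0.0566) and the receptors Bmpr1a (-0.09, adjusted p = 0.847) and Bmpr1b (1.45, adjusted p = 0.177) did not pass. Gli2 (-1.11), Smo (-0.72), Ctnnb1 (-0.86) and the SOX9 coactivator subunit Med25 (-0.56) completed the 11. These 14-dpf values had sex in the model, so the WT side of each was WT replicate 1 alone. Without sex 16 of 37 were lower (43.2%), beside 18.4% of all genes, and 7 were higher (18.9%), beside 18.8%. Under library size alone 5 were lower and 4 higher, and Gli2, Med25, Smad1, Smad5, Bmp4 and Ctnnb1 no longer passed.

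Of the 16 other Sox genes, Sox8, the sister gene of Sox9 in the SOXE group, differed in the same direction as the trio at both 6- and 14-dpf. Sox8 was at 21.4 ± 6.21 CPM in WT and 5.33 ± 1.55 in P-Apex1KO at 6-dpf (log2 -1.91, SE 0.27, edgeR adjusted p = 0.00367). At 14-dpf it was higher, at 2.94 and 5.08 CPM (log2 1.64, adjusted p = 0.0184, and 0.83, adjusted p = 0.0406, without sex). Sox10, the SOXE factor of glia, was higher at 6-dpf, at 1.85 and 4.06 CPM (log2 1.17, adjusted p = 0.0458). Sox10 is itself in the Schwann and glial list, so it is 1 of the 6 of 12 genes called higher there. DESeq2 called 8 of that list higher and 2 lower. Sox8 and Sox10 were the only 2 called of the 10 other Sox genes tested at 6-dpf. With 1 lower and 1 higher, they stand beside 5.61% and 5.31% of all genes. At 10-dpf the SOXC factors Sox11 (10.2 and 4.43 CPM, log2 -1.09, adjusted p = 0.0239) and Sox12 (10.5 and 5.93 CPM, log2 -0.78, adjusted p = 0.0469) were lower. They were 2 of 9 tested, where 3.44% of all genes were lower. At 14-dpf Sox4 (261 and 115 CPM, log2 -1.14, adjusted p = 0.00304), Sox12 (13 and 4.47 CPM, log2 -1.57, adjusted p = 0.00351), and the endothelial factors Sox7 (14.7 and 8.83 CPM, log2 -0.95, adjusted p = 0.0267) and Sox18 (45.2 and 19.7 CPM, log2 -1.19, adjusted p = 0.0062) were lower, all by edgeR. Under library size alone Sox12 at 10-dpf and Sox7 at 14-dpf no longer passed. The 14-dpf fit with sex had WT replicate 1 alone as its WT side. Of 11 other Sox genes tested in it, 4 were lower and 1 higher, beside 7.04% and 4.28% of all genes. Without sex the log2 values there were -1.14 for Sox4, -1.50 for Sox12, -0.70 for Sox7 and -1.16 for Sox18. That fit tested 9 other Sox genes and called 5 lower and 2 higher, beside 18.4% and 18.8% of all genes. At 3-dpf 0 of the 10 tested Sox genes were called by edgeR, 0 had an unadjusted p under 0.05 and DESeq2 called 0.

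Sox6 differed from the other members in its relation to red blood cell genes, when taken as deviations from group means. SOX6 is needed for erythroid maturation, and the callus and the marrow beside it contain erythroid cells. Summed over 16 counted erythroid genes, the level at 14-dpf was 1727, 1680, 1657 and 1784 CPM in WT and 3085, 3542 and 3377 CPM in P-Apex1KO, 1.95-fold on average and without overlap. Sox6 was 2.01-fold higher in the same mice. Of those 16 genes 10 were called higher at 14-dpf, among them Alas2, which starts heme synthesis (208 and 538 CPM, log2 1.11, edgeR adjusted p = 0.00514), Slc4a1, the band 3 anion exchanger (log2 1.29, adjusted p = 0.00614), and Gata1, the erythroid master factor (16.6 and 30.7 CPM, log2 0.95, adjusted p = 0.017). Over all genes 4.28% were called higher in that fit, which had sex in the model and WT replicate 1 alone as its WT side. Without sex 14 of 15 erythroid genes were higher, beside 18.8% of all genes. The sum includes globin genes, although the libraries were depleted of globin RNA. At 6-dpf, where Sox6 was lower in P-Apex1KO, the erythroid sum was 1417 to 3069 CPM in WT and 2108 to 3249 in P-Apex1KO, overlapping. Of its genes 1 was called higher then, beside 5.31% of all genes. None of the defining erythroid markers was at 0. At 3-dpf the sum ran from 458 to 3258 CPM, and its lowest libraries, WT replicate 1 (555 CPM) and the library labelled P-Apex1KO replicate 1 (458 CPM), were also the lowest in Sox6 within their groups, at 33.9 and 51.3 CPM. The part of erythroid cells in the Sox6 values was not tested.

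Across the 30 libraries log2 Sox6 and the log2 erythroid sum had a Pearson r of 0.67 (Spearman rho 0.46), 0.67 over the 16 libraries of 3- and 6-dpf and 0.70 over the 14 of 10- and 14-dpf. Without the 2 libraries farthest from the median erythroid sum r was 0.34, so that much of the relation rests on them. Taken as deviations from the group means, r was 0.88 over all 30 libraries and 0.54 over the 22 libraries of 6-dpf and later. For Sox9 the deviations had an r of -0.06 with the erythroid sum and 0.87 with the summed cartilage targets. For Sox5 these were -0.33 and 0.71, and for Sox6 the value with the targets was 0.16. The erythroid sum was not alone in its relation to Sox6 levels. Over the 14 libraries of 10- and 14-dpf, r was 0.73 with the Schwann and glial sum and 0.65 with muscle. It was -0.88 with osteoblast and -0.86 with endothelium there. Over the 16 libraries of 3- and 6-dpf it was 0.81 with the cartilage targets. All of these are descriptions over libraries that share genotype, time and depth, with no test.

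**Figure D5:**
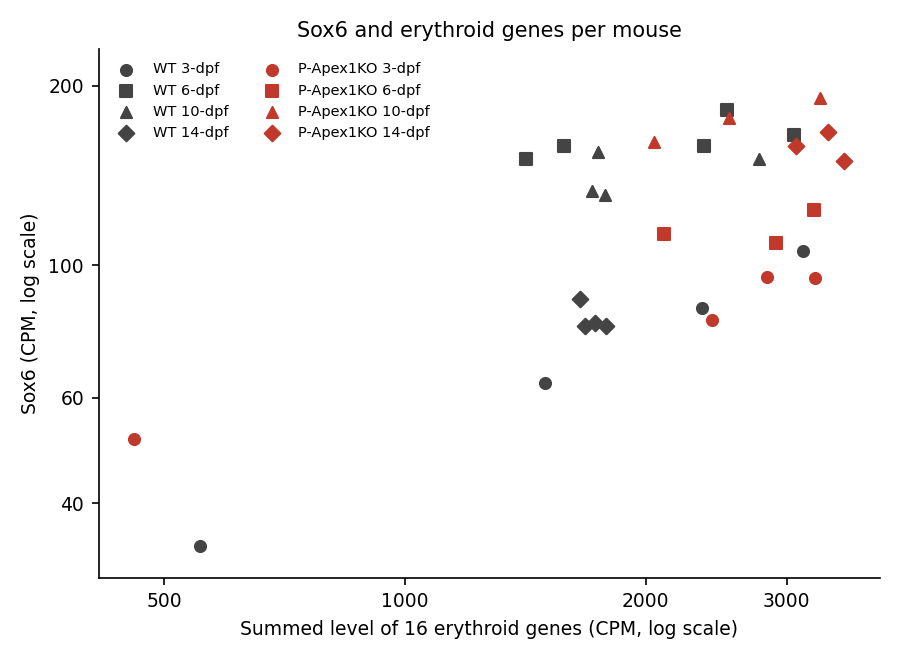
Sox6 level against the summed level of 16 erythroid genes in each library (CPM, both axes log scale), by genotype (WT grey, P-Apex1KO red) and time (symbols). At 14-dpf the 3 P-Apex1KO libraries lie above and to the right of the 4 WT libraries, and the libraries of 3-dpf with the lowest erythroid sums, 458 and 555 CPM, lie at the far left.

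The trio itself was compared in the same way. Sox9 and Sox5 had an r of 0.84 over the 30 libraries on the log2 scale and 0.64 as deviations from group means. Sox5 and Sox6 had 0.82 over all libraries but 0.01 as deviations, and Sox9 and Sox6 0.63 and 0.13. Between mice of the same group, pooled over all times, Sox9 and Sox5 varied together more than either did with Sox6. The SD of Sox6 at 3-dpf was 42.6% of the mean in WT and 25.8% in the libraries labelled P-Apex1KO. In the later groups it was 5.2 to 8.5%. The Sox6 deviations, and the genes ranked by them, thus rest largely on the 3-dpf libraries. The likeness was ranked over the 13795 protein-coding genes that averaged 1 CPM or more. Those closest to Sox9 by deviations were Acan, which encodes the cartilage proteoglycan aggrecan (r 0.94), Comp, a cartilage matrix glycoprotein (0.89), Susd5 (0.89), Matn3 (0.87) and Ntng1 (0.86). Those closest to Sox5 were Slc35d1, a sugar nucleotide transporter needed for chondroitin sulfate (0.83), Epyc (0.82), Pak3 (0.82), Nim1k (0.80) and Prkd1 (0.80). Those closest to Sox6 were Gfap, a glial filament gene (0.92), Fbxo7 (0.91), Snx22 (0.91), Car1, the carbonic anhydrase of red cells (0.91), and Stard10 (0.91). The summed Schwann and glial list, which includes Gfap, had an r of -0.34 with Sox6 by deviations. Over the 22 libraries of 6-dpf and later that r was 0.14. By levels rather than deviations the leading gene was Rtl3 for Sox9 (0.96), Kcna6 for Sox5 (0.97) and Fbxo7 for Sox6 (0.91), and Sox8 ranked 11 for Sox5 (0.96).

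Neighbouring genes within 500 kb were read for the same contrasts. At 14-dpf these had sex in the model and so WT replicate 1 alone as the WT side. The annotation held 20 such neighbours for Sox9, 41 for Sox5 and 34 for Sox6, not all of them counted. Those named below were chosen after their values were seen. Over all genes 5.61% were lower at 6-dpf, and 4.28% were higher and 7.04% lower at 14-dpf. Whether neighbours change with the trio was not tested. BC006965, a long noncoding RNA on the opposite strand that overlaps Sox9 on chromosome 11 (112554747 to 112693854), gathered 0 to 107 reads and was lower at 6-dpf together with Sox9, at 2.58 and 0.806 CPM (log2 -1.65, SE 0.41, edgeR adjusted p = 0.0312). The counts were stranded. 2610035D17Rik, downstream of Sox9, was at 6.14 and 3.75 CPM at 6-dpf (log2 -0.67, adjusted p = 0.0437). Bcat1, an enzyme of branched-chain amino acid breakdown beside Sox5, was at 78.1 and 43.5 CPM (log2 -0.85, adjusted p = 0.00583). Plekha7, beside Sox6, was higher at 14-dpf, at 4.29 and 9.39 CPM (log2 1.41, adjusted p = 0.0235), as Sox6 was, and Slc39a11, beside Sox9, was lower (log2 -0.69, adjusted p = 0.016), unlike Sox9. 1110004F10Rik, which overlaps the 5′ end of Sox6 on the other strand, was not called at 6-dpf (log2 -0.22, adjusted p = 0.163) or 14-dpf (-0.32, adjusted p = 0.172), all by edgeR.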

How the data were processed

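Per the labels and methods, the authors ground whole calluses, extracted RNA and made stranded total RNA libraries depleted of ribosomal and globin RNA. They aligned the paired reads to mm39 with STAR 2.7.0d and used featureCounts on uniquely mapped reads of the reverse strand, per Ensembl gene. The deposited values are raw read counts, which were used unchanged. Symbols came from the GENCODE M39 annotation and matched 54749 of 55416 genes. Each time was fitted apart in edgeR 4.0.16 (R 4.3.3) with filterByExpr, TMM scaling, sex as a covariate and the quasi-likelihood test, with Benjamini-Hochberg adjustment over all genes tested; DESeq2 1.42.0 was an alternative. Changes over time were fitted within 3- and 6-dpf and within 10- and 14-dpf. CPM used TMM factors over all libraries. Ratios within libraries were compared by exact permutation (scipy 1.17.1). The fits were tested on simulated data. The trio and the gene lists were chosen with earlier results of these data known. Genes named from the target list are the 4 with the largest differences past the threshold at each time, and from the other Sox and regulator lists all past it at any time; others are named where a sentence needs them and were chosen after their values were seen. Nothing in the labels says whether libraries of a group are separate litters, so p-values measure the spread between these mice. Promoter sequences are RefSeq's (GRCm38.p6).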

Additional observations from a re-analysis of the deposited data

Results flagged for a closer look

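Over 30 groups of 4 or more libraries, 3 held a library far from the others by Dixon's criterion, which by chance marks about 1 in 20 groups. Sox6 in WT replicate 3 at 14-dpf, at 88.0 CPM, was the highest of its group, with a gap of 0.887 of the group's range. The log2 ratio of Sox6 to Sox9 in WT replicate 1 at 14-dpf, at 2.32, was the highest of its group, with a gap of 0.863; this is the WT female low in Sox9. The log2 ratio of Col2a1 to Sox9 in WT replicate 4 at 6-dpf, at 5.38, was the lowest of its group, with a gap of 0.850.

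The genotype difference of Sox6 at 14-dpf exceeded that at 10-dpf by 0.71 (edgeR adjusted p = 0.0450).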

How the results depend on the processing

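At 6-dpf Sox9 and Sox5 passed in every alternative run, with values from -2.12 to -1.54 and from -1.79 to -1.32, left-out libraries included, and at 14-dpf Sox5 and Sox6 did, from 1.13 to 1.85 and from 0.81 to 1.28. Sox6 at 6-dpf did not pass under library size alone (-0.29) or with all samples in 1 model (-0.45), and ran from -0.56 to -0.37 with 1 library left out. Sox9 at 14-dpf did not pass without a filter (2.25), without sex (0.91), with a replicate block (1.00) or with all samples in 1 model (0.91), and ran from 0.61 to 2.52 with 1 library left out. The cause of these changes was not tested. The Sox9 change in P-Apex1KO from 3- to 6-dpf passed by DESeq2 (1.18), library size alone (1.16) and at least 10 reads in every sample (1.19), with a range of 0.96 to 1.78 over left-out libraries. The Sox5 genotype difference between 3- and 6-dpf passed by DESeq2 (-1.26), at least 10 reads (-1.23) and all samples (-1.27), ranging from -1.41 to -1.12, and that between 10- and 14-dpf by DESeq2 (1.21), ranging from 0.85 to 1.59, where it also passed without WT replicate 4 of 10-dpf. The Sox6 difference between 10- and 14-dpf did not pass under library size alone (0.86), the block (0.61) or all samples (0.49), ranging from 0.64 to 0.90. The Sox6 change in P-Apex1KO from 10- to 14-dpf was 0.0491 without P-Apex1KO replicate 1 of 10-dpf, at the top of a range from -0.17.

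Called regulators numbered 11 at 6-dpf and 4 with the block (5 to 13 with 1 library left out), 4 at 10-dpf against 11 by DESeq2, 7 without a filter and 7 with all samples (0 to 8), and 11 at 14-dpf against 23 without sex and 21 with all samples (5 to 23). Called targets at 10-dpf numbered 1 against 6 by DESeq2, 2 under library size alone, 0 without a filter, 2 at 10 reads, 2 with the block and 0 with all samples (0 to 10), and at 14-dpf 23 against 12 without sex, 4 with the block and 12 with all samples (8 to 26). Other Sox genes called ranged from 1 to 2 at 6-dpf, 0 to 2 at 10-dpf (5 by DESeq2) and 4 to 8 at 14-dpf with 1 library left out. Leaving out 1 library turned the sign of the Sox5 to Sox9 ratio at 10-dpf (-0.18 to 0.14) and 14-dpf (-0.0289 to 0.55), and of the Sox6 to Sox9 ratio at 10-dpf (-0.34 to 0.12) and 14-dpf (-0.29 to 0.42). Of 13 same-numbered pairs 5 deviated together with r over 0.1 (range -0.25 to 0.39). These values have no reference to be set against and cannot decide whether the numbers pair the mice. The fit with sex and without WT replicate 1 at 14-dpf could not be made, and the fits there without sex and with 1 library left out were chosen after seeing the data.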
